A study of Mus musculus with 20 samples.

Results

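The hippocampus of mice infused with small RNAs (sRNAs) of patients with schizophrenia was compared with that of mice infused with vehicle, across all genes. The comparison takes 10 of the 20 sequenced mice, the 5 of the Pool 1 group and the 5 of the Vehicle group, which were chosen by their labels. Pool 1 mice received sRNAs pooled from post-mortem hippocampi of 10 patients, and Vehicle mice received artificial cerebrospinal fluid without sRNAs. All 10 were wild-type C57BL/6JOlaHsd males, labelled as 4 months old, and both groups carried bilateral cannulas in the CA1 of the dorsal hippocampus. The tissue was taken 24 hours past the final test of behaviour, so every mouse had also been tested. The remaining mice are 5 given a pool made from 9 unaffected individuals (Control) and 5 infused with a second patient pool (Pool 2). The infused material of each group is 1 pool, so mice of a group are not replicates over donors. Vehicle and Pool 1 mice differ both in having received sRNAs at all and in the donors being patients, which this pair of groups cannot tell apart. Values of Pool 1 against Control are therefore given beside many of the genes with the smallest p-values and beside several gene lists.

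CA1 is the output field of the hippocampus, and its pyramidal neurons receive input from CA3 and are controlled by local interneurons. sRNAs such as miRNAs lower the level or translation of transcripts that they pair with through a short seed, in a complex with Argonaute proteins. The hippocampus lies next to the lateral ventricle, whose choroid plexus secretes cerebrospinal fluid, and beneath it lie the habenula and the thalamus. A block of hippocampal tissue can therefore carry cells of these neighbours.

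The Vehicle libraries held 20588280 to 25142848 counts and the Pool 1 libraries 21351170 to 25314679 counts. Expression is given as CPM, the count of a gene relative to its library's total after TMM scaling, and 3 counts corresponded to 0.121 to 0.146 CPM. The mean of log2 CPM over 9 genes of CA1 pyramidal neurons was 6.12 to 6.38 in Vehicle mice and 5.57 to 6.73 in Pool 1 mice, so the labelled tissue was present in every library. Pool 1 replicate 1 had the lowest value of the CA1 genes and, at 6.24, the highest value of these 10 mice for the genes of dentate granule cells. Vehicle replicate 4 stood apart in the genes of the choroid plexus, which summed to 12995 CPM in this mouse, to 464 to 2056 CPM in the other Vehicle mice and to 263 to 625 CPM in Pool 1 mice. Results are therefore given with and without this mouse. Vehicle replicate 2 stood apart in genes of cholinergic neurons and of the medial habenula, as described with those genes. The edgeR p-values rest on the spread between mice within all 4 groups of the series, fitted together unless stated. The permutation p-values rest on the compared mice only. Values that follow the CPM of a gene in parentheses are log2 fold changes of Pool 1 against Vehicle with their standard error (SE), and CPM values are listed in the order of replicates 1 to 5.

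Of the 25190 genes tested, 267 were higher in Pool 1 than in Vehicle mice (1.06%) and 1078 were lower (4.28%), with a threshold of 0.3 on the absolute log2 fold change and of 0.05 on the unadjusted p-value of edgeR. In edgeR 0 genes reached an adjusted p-value under 0.05, although 1603 had an unadjusted p-value under 0.05, and DESeq2 called 34 genes at an adjusted p-value under 0.05. The smallest adjusted p-value in edgeR was 0.0536. Without Vehicle replicate 4, 226 genes were higher (0.897%) and 819 were lower (3.25%). Both fits shared 657 of the lower genes, which were 60.9% of the 1078 and 80.2% of the 819, and 171 of the higher genes, which were 64.0% of the 267 and 75.7% of the 226. In the volcano plot of all genes, the lower genes reach smaller p-values than the higher genes.

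Of the 1078 lower genes, 792 were protein-coding, as were 16756 of the 25190 genes tested. Among the 16590 genes with a mean normalised count of at least 10, 724 were lower, 649 of them protein-coding, with a median absolute log2 fold change of 0.72. In the same range of levels 88 were higher, 67 of them protein-coding, with a median of 0.51. Of 3930 lncRNA genes, 66 were higher and 177 were lower, against 1.06% and 4.28% of all genes. In 65 genes every Pool 1 mouse lay above every Vehicle mouse (0.258%), and in 161 genes every Pool 1 mouse lay below every Vehicle mouse (0.639%). Without Vehicle replicate 4 the latter were 293 (1.16%).

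**Figure D1:**
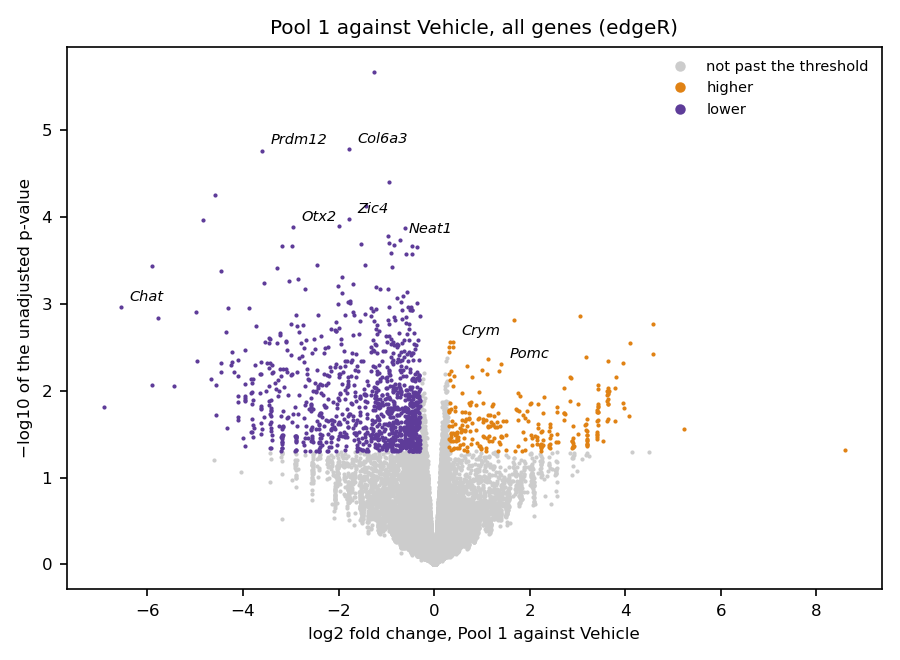
Log2 fold change of Pool 1 against Vehicle (x axis) and −log10 of edgeR's unadjusted p-value (y axis) for the 25190 genes, 1 point a gene, with 267 higher genes in orange and 1078 lower genes in purple. The lower genes outnumber the higher ones and reach smaller p-values.

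Among the lower genes with the smallest p-values were Zic genes, which encode zinc finger transcription factors of the developing midline brain. In the adult brain they are known from the thalamus, the septum, the habenula and the meninges rather than from hippocampal pyramidal neurons. Zic1, Zic2, Zic4 and Zic5 fell in Pool 1 mice, by log2 fold changes of −1.69 (Zic1), −0.67 (Zic2), −1.77 (Zic4) and −0.97 (Zic5). These 4 genes were picked out after their values were seen, so the count is a description. Zic1 (ENSMUSG00000032368.14, chromosome 9, 91358058 to 91365810, minus strand, GRCm38) and Zic4 (ENSMUSG00000036972.14, chromosome 9, 91362413 to 91389348, plus strand) overlap by 3398 bases, and the libraries mark strand, but which strand column of STAR was kept is not given in the sources used here. Zic5 (chromosome 14, 122456795 to 122465677, minus strand) and Zic2 (chromosome 14, 122475435 to 122479852, plus strand) point away from each other with 9758 bases between their starts. The promoters of 3 of the 4 are shown because these genes fell together. They come from RefSeq (GRCm38.p6), run from 250 bases before to 50 bases after the annotated start and carry the GC box GGGCGG, searched on both strands, in capitals.

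Zic1 promoter, chr9:91365719-91366018, minus strand: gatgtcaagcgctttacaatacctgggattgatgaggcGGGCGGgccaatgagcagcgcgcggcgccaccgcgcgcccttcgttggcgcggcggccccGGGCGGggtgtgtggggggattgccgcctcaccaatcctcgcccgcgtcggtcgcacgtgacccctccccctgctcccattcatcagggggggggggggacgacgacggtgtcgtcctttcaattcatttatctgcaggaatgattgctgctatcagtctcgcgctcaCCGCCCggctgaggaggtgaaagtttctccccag

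Zic4 promoter, chr9:91368722-91369021, plus strand: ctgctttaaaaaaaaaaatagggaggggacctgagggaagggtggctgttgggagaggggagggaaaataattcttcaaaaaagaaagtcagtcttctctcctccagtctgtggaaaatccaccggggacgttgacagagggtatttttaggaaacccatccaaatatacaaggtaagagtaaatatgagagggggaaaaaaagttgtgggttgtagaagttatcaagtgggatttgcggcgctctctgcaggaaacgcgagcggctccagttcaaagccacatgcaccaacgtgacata

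Zic5 promoter, chr14:122465609-122465908, minus strand: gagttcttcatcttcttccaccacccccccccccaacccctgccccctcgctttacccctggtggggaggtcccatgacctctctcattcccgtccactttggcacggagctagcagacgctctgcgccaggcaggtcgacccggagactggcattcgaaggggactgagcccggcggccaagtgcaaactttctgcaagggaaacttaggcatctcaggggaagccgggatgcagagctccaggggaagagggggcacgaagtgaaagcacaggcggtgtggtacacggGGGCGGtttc

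The RefSeq starts of Zic1 (91365768) and Zic4 (91368972) lie 3204 bases apart, but the windows differ in base composition. In the deposited coordinates Zic4 starts at 91362413 instead. The annotations differ, and the overlap given above is that of the deposited one. The Zic1 window held 31 CpG dinucleotides and 3 GC boxes, the Zic5 window 15 and 1, and the Zic4 window 8 and 0. Over the 32851 promoters of the table, the median was 7 CpG dinucleotides and 35.7% held at least 1 GC box. A match is a description of these letters only.

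Zic1, the highest of the 4 in CPM, had 46.5, 47.7, 16.1, 27.1 and 28.8 CPM in Vehicle replicates 1 to 5 and 11.3, 10.7, 10.2, 7.71 and 11.6 CPM in Pool 1 replicates 1 to 5. The Pool 1 mice lay close together and below all Vehicle mice, of which replicates 1 and 2 were the highest. The log2 fold change was −1.69 ± 0.40 SE with an adjusted p-value of 0.436 in edgeR, and −1.76 without Vehicle replicate 4. Zic4 had 14.2, 11.6, 3.47, 6.80 and 9.91 CPM in Vehicle mice and 2.55, 1.79, 3.25, 2.07 and 3.78 CPM in Pool 1 mice, and the groups overlapped in Vehicle replicate 3 only. Its log2 fold change was −1.77 ± 0.37 SE with an adjusted p-value of 0.283 in edgeR, and −1.87 without Vehicle replicate 4. Zic5 did not overlap between the groups, with 3.92 CPM in the lowest Vehicle mouse and 3.83 CPM in the highest Pool 1 mouse. Zic2 overlapped, with 11.7 CPM in the lowest Vehicle mouse and 12.7 CPM in the highest Pool 1 mouse.

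The sum of the 4 genes was 35.3 to 87.7 CPM in Vehicle mice, 35.5 to 62.1 CPM in Control mice, 38.0 to 119 CPM in Pool 2 mice and 20.04 to 30.1 CPM in Pool 1 mice. Pool 1 was the only group of the series that lay wholly below the others. All 4 genes also fell under each of the 18 alternatives tried, the one without Vehicle replicate 4 among them. Against Control mice, 3 of the 4 were lower in Pool 1 (Zic1 −1.12, Zic4 −0.85 and Zic5 −0.49 on the log2 scale), in a comparison in which 1.99% of all genes were lower and 1.48% were higher. Zic2 was at −0.38 with an unadjusted p-value of 0.0511 in edgeR. Control mice lay between, with −0.92 for Zic4 and −0.57 for Zic1 against the same Vehicle mice.

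**Figure D2:**
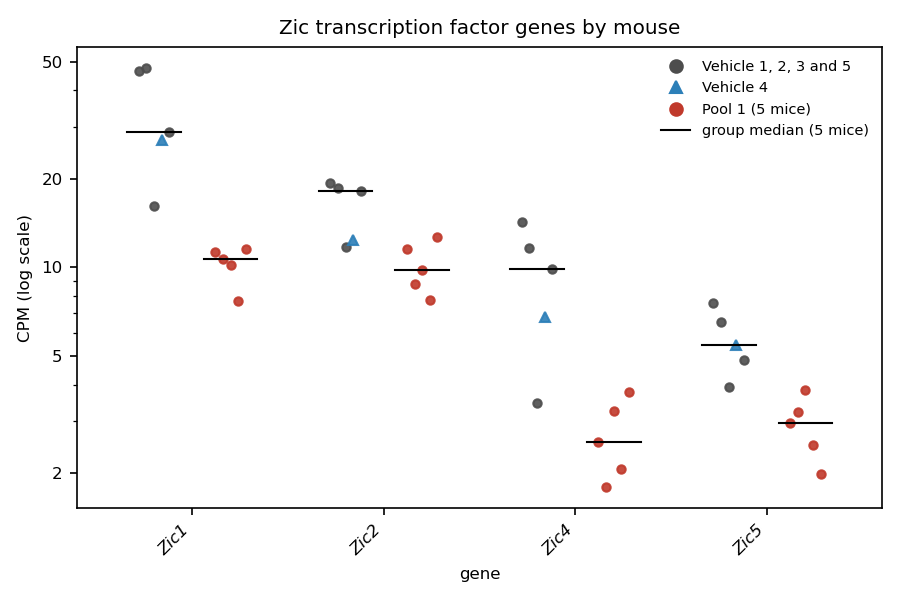
CPM on a log scale (y axis) of 4 Zic genes (x axis) in each Vehicle mouse (grey, Vehicle replicate 4 as a blue triangle) and each Pool 1 mouse (red), with a line at each group's median. Zic1 and Zic5 do not overlap between the groups, and Vehicle replicate 4 is not extreme in any of the 4.

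Beyond the Zic family, the coding genes with the smallest p-values among the lower ones were Col6a3, Prdm12, Frrs1, Ano2, Tuba1c, Otx2, Ptgfrn, Mamdc2 and Syt9. Col6a3, which encodes a chain of collagen VI, had 21.2, 10.7, 4.60, 7.15 and 8.47 CPM in Vehicle mice and 3.52, 2.56, 2.81, 3.32 and 2.87 CPM in Pool 1 mice. The groups did not overlap, and Vehicle replicate 1 was the highest mouse. Its log2 fold change was −1.79 ± 0.32 SE with an adjusted p-value of 0.144, and Pool 1 did not pass the threshold against Control (−0.55, unadjusted p-value in edgeR 0.105). Ano2, a calcium-activated chloride channel, had 5.56, 2.86, 1.61, 1.89 and 3.17 CPM in Vehicle mice and 1.33, 0.672, 1.31, 0.948 and 1.33 CPM in Pool 1 mice, again without overlap (−1.43 ± 0.30 SE), and stood at −0.66 against Control. Syt9, a calcium sensor of vesicle release in the synaptotagmin family, had 7.04, 15.8, 4.89, 7.85 and 6.70 CPM in Vehicle mice and 2.87, 3.32, 1.89, 3.58 and 2.99 CPM in Pool 1 mice. Vehicle replicate 2 was the highest, the groups did not overlap, and the log2 fold change was −1.52 ± 0.34 SE against Vehicle and −0.84 against Control (unadjusted p-value in edgeR 0.0220).

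Frrs1, Ptgfrn and Mamdc2 fell by smaller amounts without any overlap. Frrs1, a ferric reductase, had 4.47, 3.72, 4.00, 5.79 and 3.17 CPM in Vehicle mice and 1.98, 2.42, 2.43, 2.03 and 2.12 CPM in Pool 1 mice (−0.95 ± 0.19 SE). Ptgfrn, a partner of tetraspanins at the cell surface, had 15.8, 12.7, 11.5, 13.9 and 10.3 CPM in Vehicle mice and 8.09, 9.50, 6.55, 7.84 and 9.80 CPM in Pool 1 mice (−0.62 ± 0.14 SE). The lowest Vehicle mouse and the highest Pool 1 mouse of Ptgfrn were close, at 10.3 and 9.80 CPM. Mamdc2, an extracellular matrix proteoglycan, fell by 0.94 on the log2 scale, with 1.69 CPM in the lowest Vehicle mouse and 1.66 CPM in the highest Pool 1 mouse. Against Control mice, Frrs1 was lower in Pool 1 (−0.46), while Ptgfrn (−0.18, unadjusted p-value 0.209) and Mamdc2 (−0.39, unadjusted p-value 0.0862) did not pass the threshold in edgeR.

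The other lower genes of this group depended more on single mice or lay near the floor. Prdm12, a transcriptional regulator of sensory neuron development, had 1.85, 0.736, 0.121, 0.614 and 1.16 CPM in Vehicle mice and 0.162, 0.0448, 0.0485, 0.0862 and 0 CPM in Pool 1 mice. All but 1 of the Pool 1 values were at or under 3 counts, the groups overlapped in Vehicle replicate 3, and the log2 fold change was −3.59 ± 0.67 SE against Vehicle and −1.67 against Control. Tuba1c, an alpha-tubulin, had 2.53, 2.81, 0.727, 6.84 and 1.77 CPM in Vehicle mice and 0.647, 0.538, 0.922, 0.905 and 0.664 CPM in Pool 1 mice, and its log2 fold change moved from −1.99 to −1.41 without Vehicle replicate 4. Against Control mice Tuba1c stood at −0.97 (unadjusted p-value in edgeR 0.0362). Reads of Tuba1c can be shared with near-identical tubulin genes, so its value is uncertain. Otx2 is described with the choroid plexus.

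**Figure D3:**
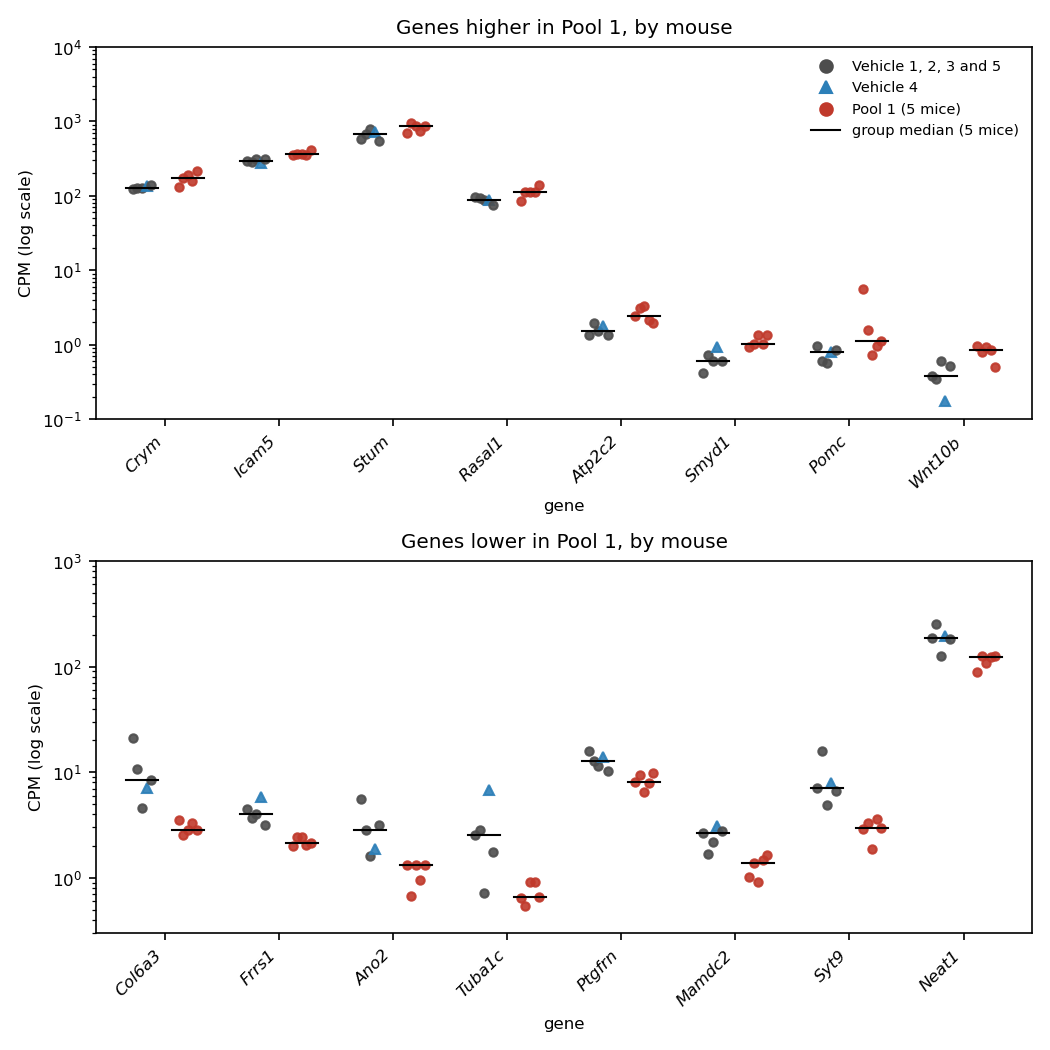
CPM on a log scale (y axis) of 8 genes higher in Pool 1 (top) and 8 genes lower in Pool 1 (bottom) by mouse, with Vehicle mice in grey, Vehicle replicate 4 as a blue triangle, Pool 1 mice in red and a line at each group's median. Pomc is high in 1 Pool 1 mouse, at 5.58 CPM, and Icam5, Atp2c2 and Smyd1 do not overlap between the groups.

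Genes of the choroid plexus, the secretory epithelium of the ventricles, had the lowest median of the 37 gene lists, and most of the calls rested on Vehicle replicate 4. All 16 genes of the list fell in Pool 1 mice, with a median log2 fold change of −3.32, and 4 of 16 fell without this mouse, with a median of −1.88, against 4.28% and 3.25% of all genes in these fits. The corresponding median over all genes was −0.01 in both fits. Ttr, the thyroid hormone carrier that the plexus secretes, had 680.2, 1089, 152, 8329.6 and 292 CPM in Vehicle mice and 66.4, 222, 191, 108 and 88.9 CPM in Pool 1 mice. Vehicle replicate 4 was far above all others and the remaining groups overlapped through Vehicle replicate 3, so that Ttr passed the threshold with this mouse (−3.96 ± 1.32 SE) and not without it (−2.03, unadjusted p-value 0.0827 in edgeR). Clic6, an intracellular chloride channel protein, kept its call with 27.8, 31.3, 5.65, 138 and 11.4 CPM in Vehicle mice and 2.95, 7.62, 6.94, 2.76 and 4.78 CPM in Pool 1 mice (−3.10 with and −1.93 without Vehicle replicate 4), and only Vehicle replicate 3 lay within the Pool 1 range. F5, coagulation factor V, and Igf2, insulin-like growth factor 2, did so too, at −2.06 and −1.17 without this mouse.

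Otx2, the homeobox factor that maintains the identity of the plexus epithelium, had 7.79, 9.78, 3.71, 34.7 and 4.79 CPM in Vehicle mice and 1.38, 1.43, 1.60, 1.12 and 2.28 CPM in Pool 1 mice. The groups did not overlap with or without Vehicle replicate 4, and the log2 fold change was −2.95 ± 0.60 SE with and −2.06 without it. Against Control mice it was −1.27 (unadjusted p-value in edgeR 0.0496), and Otx2 was the 1 gene of the 16 to pass the threshold there. The median over the 16 genes was −1.32 against Control. Against the same Vehicle mice, the median was −1.82 in Control, where 5 of 16 genes and 3.41% of all genes were lower, and −2.36 in Pool 2, where 11 of 16 genes and 1.89% of all genes were lower. Both of these medians against Vehicle include Vehicle replicate 4, and neither was computed without it. Summed CPM was 303 to 3521 in Control mice and 283 to 2306 in Pool 2 mice. The highest were Control replicate 3, with 1184 CPM next, and Pool 2 replicate 3, with 560 CPM next. In bulk tissue, fewer cells of a type and less RNA per cell cannot be told apart, and how much plexus was dissected with each hippocampus was not measured.

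Otx2 has 4 annotated starts in RefSeq, and 1 of them held the letters TAATCC, the core bound by OTX proteins, here on the opposite strand and in capitals. It is shown because Otx2 kept the clearest separation among the plexus genes.

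Otx2 promoter, chr14:48665060-48665359, minus strand: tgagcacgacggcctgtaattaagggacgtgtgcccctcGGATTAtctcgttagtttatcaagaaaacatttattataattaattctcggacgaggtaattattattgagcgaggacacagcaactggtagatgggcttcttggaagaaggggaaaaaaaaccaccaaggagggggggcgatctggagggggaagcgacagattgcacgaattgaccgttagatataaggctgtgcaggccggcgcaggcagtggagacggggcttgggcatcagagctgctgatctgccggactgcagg

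Of the 11 genes of the plexus list with a promoter in the table, 2 held this motif on either strand at any of their starts (Otx2 and Igf2), against 8.14% of 27025 genes, and the absence of the letters from the other windows says nothing about binding elsewhere.

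**Figure D4:**
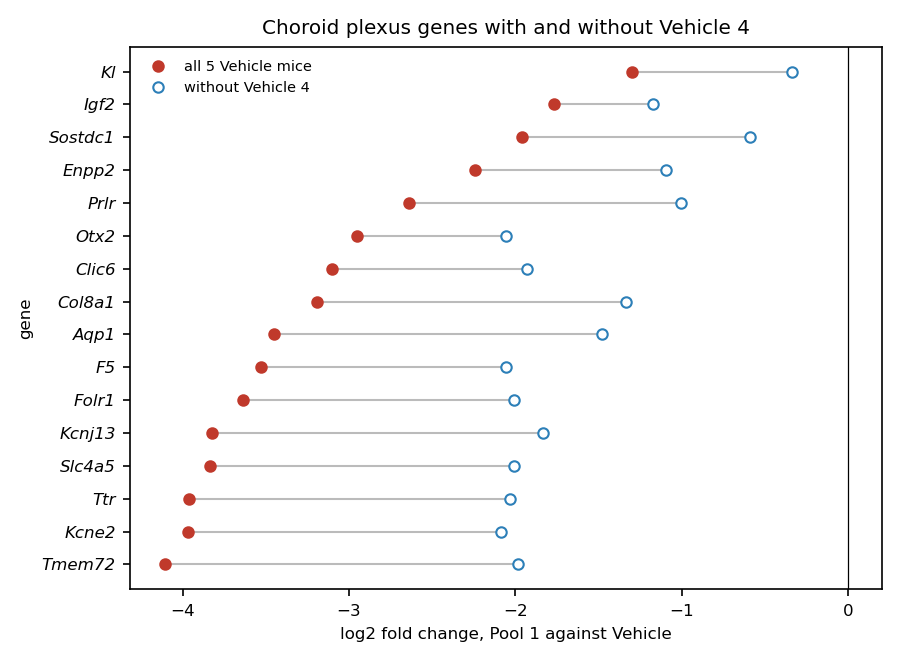
Log2 fold change of Pool 1 against Vehicle (x axis) of the 16 choroid plexus genes (y axis), with all 5 Vehicle mice (red) and without Vehicle replicate 4 (open blue), joined by a line for each gene. Every gene moves towards 0 without this mouse, and the median moves from −3.32 to −1.88.

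Ependymal cells, the ciliated lining of the ventricles, gave a similar picture with smaller changes. Of 22 genes measured, 9 fell in Pool 1 mice, against 4.28% of all genes. Without Vehicle replicate 4, 2 of 22 fell (Dnah11 and Cfap52), against 3.25% of all genes, while the median log2 fold change was −0.69 with and −0.71 without this mouse. The count was 18 of 22 without Pool 1 replicate 5 and 14 of 22 without Vehicle replicate 3, in fits where 1255 and 1330 of the 25190 genes were lower. Dnah11, a dynein of motile cilia, had 4.47, 8.23, 1.74, 8.60 and 2.84 CPM in Vehicle mice and 0.526, 2.15, 1.55, 0.388 and 3.11 CPM in Pool 1 mice. The groups overlapped in Vehicle replicates 3 and 5 and in Pool 1 replicates 2 and 5. Against Control mice no gene of this list passed the threshold and the median was 0.02. The list was drawn up after values were seen.

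Genes of neurons of the regions around the hippocampus were also among the lower genes. In the list of the medial habenula, 8 of 15 genes fell with and without Vehicle replicate 4, against 4.28% and 3.25% of all genes. Without Vehicle replicate 2, 3 of 15 fell, where 903 of all 25190 genes were lower. Chrnb4, a nicotinic receptor subunit of habenular neurons, had 0.548, 4.63, 0.565, 1.80 and 1.21 CPM in Vehicle mice and 0.0809, 0.0448, 0.243, 0.259 and 0.955 CPM in Pool 1 mice (−2.43 ± 0.65 SE). Pou4f1, a homeobox factor that marks the habenula, had 0.126, 3.64, 0.848, 0.219 and 0.652 CPM in Vehicle mice and 0.162, 0, 0.146, 0.129 and 0.125 CPM in Pool 1 mice. Both genes were highest in Vehicle replicate 2, and the groups overlapped in both. Against Control, 1 of the 15 genes was lower, against 1.99% of all genes, and the median was −0.15.

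Of the lower genes of cholinergic neurons, Chat, Slc18a3 and Slc5a7 were also highest in Vehicle replicate 2. Isl1 (−3.43) was not, and at 0.0866 CPM this mouse was its lowest Vehicle mouse. Chat, the enzyme that makes acetylcholine, had 0.253, 1.69, 0.323, 0.0878 and 0.140 CPM in Vehicle mice and no count in any of the 5 Pool 1 mice. The 58 counts of the Vehicle mice, 39 of them in replicate 2, against the floor of 3 counts over the Pool 1 mice made Chat at least 19.2-fold lower. This bound rests mostly on replicate 2 and would be far smaller without it, as the other Vehicle mice had 6, 8, 2 and 3 counts. Slc18a3, the vesicular acetylcholine transporter, and Slc5a7, the choline transporter, fell by 2.38 and 1.30 on the log2 scale, and in both the groups overlapped and Vehicle replicate 2 was the highest mouse. Without it neither passed the threshold, at −1.20 for Slc18a3 and −0.55 for Slc5a7 (unadjusted p-values 0.203 and 0.158 in edgeR). Of the 7 genes of the list, 4 fell, against 4.28% of all genes. Without Vehicle replicate 2, 2 of 7 fell, where 903 of all 25190 genes were lower. In the list of septum and striatum, 5 of 15 genes fell with and without Vehicle replicate 4, against 4.28% and 3.25% of all genes, Zic1, Prdm12 and Six3 among them, and the median was −0.31 with and −0.12 without it. Against Control, 3 of these 15 genes and 2 of the 7 cholinergic genes were lower, against 1.99% of all genes, with medians of 0.01 and −0.39. The lists of the medial habenula, of cholinergic neurons and of septum and striatum were drawn up after values were seen.

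Of 18 genes of the thalamus, 3 fell, against 4.28% of all genes, and 2 of them are the Zic genes named above (Zic1 and Zic4). The count ran from 2 to 6 over the alternatives, with 6 in the fit of only the Pool 1 and Vehicle mice. The third, Lef1, a transcription factor of the Wnt pathway that is expressed by thalamic neurons, had 6.11, 5.28, 5.37, 5.88 and 4.84 CPM in Vehicle mice and 4.69, 2.73, 3.30, 3.28 and 3.82 CPM in Pool 1 mice, without overlap (−0.62 ± 0.26 SE). The median of the list was −0.33, and 16 of 18 genes had a log2 fold change below 0. Against Control, 3 of the 18 genes were lower, against 1.99% of all genes, with a median of −0.47. Lef1 was not one of these 3 (−0.40, unadjusted p-value in edgeR 0.138). The mean of log2 CPM over the 18 genes was 3.01 to 3.51 in Vehicle mice and 2.61 to 3.02 in Pool 1 mice, with Vehicle replicate 4 as the lowest Vehicle mouse. In the neocortex list 2 of 14 genes fell, against 4.28% of all genes. They were Rorb, a nuclear receptor of layer 4 neurons, and Foxp2, a forkhead factor of deep layers. Rorb had 19.3, 19.0, 21.8, 17.3 and 21.0 CPM in Vehicle mice and 15.1, 16.9, 17.2, 16.8 and 12.4 CPM in Pool 1 mice, without overlap (−0.33 ± 0.12 SE). Without Pool 1 replicate 5 none of the 14 passed the threshold, and 1 fell without Vehicle replicate 1 or Vehicle replicate 3. Against Control none of the 14 passed it. The part of tissue from these neighbouring regions in the lower genes, the Zic genes included, was not tested.

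Of the 12 higher coding genes with the smallest p-values, 8 rose by less than 0.5 on the log2 scale, and the other 4 had means of at most 2.60 CPM in either group. Crym, a thyroid hormone binding protein of the forebrain, had 124, 129, 128, 134 and 141 CPM in Vehicle mice and 132, 172, 189.6, 157 and 218 CPM in Pool 1 mice. Pool 1 replicate 1 lay within the Vehicle range and the other 4 above it (0.41 ± 0.12 SE, adjusted p-value 0.527). Icam5, the telencephalic adhesion molecule of dendrites, had 296, 287, 313, 275 and 311 CPM in Vehicle mice and 355, 363, 364, 353 and 414 CPM in Pool 1 mice. The groups did not overlap, but the log2 fold change moved from 0.32 to 0.29 without Vehicle replicate 4, just under the threshold. Stum, a gene named for a mechanosensory transduction factor of the fly, had 576, 686, 793, 715 and 548 CPM in Vehicle mice and 695, 951, 871, 735 and 874 CPM in Pool 1 mice (0.31 ± 0.11 SE). Rasal1, a Ras GTPase-activating protein that responds to calcium, had 97.0, 92.2, 88.1, 87.8 and 74.9 CPM in Vehicle mice and 85.8, 114, 112, 114 and 139.8 CPM in Pool 1 mice (0.36 ± 0.12 SE), and in it, as in Stum, the groups overlapped. Against Control mice, Crym was at 0.29, Rasal1 at 0.28 and Stum at 0.33, and only Stum passed the threshold. Icam5 was at 0.18 there, with an unadjusted p-value of 0.0740 in edgeR.

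Among the higher genes of low level, Atp2c2, a calcium pump of the secretory pathway, had 1.35, 1.95, 1.53, 1.80 and 1.35 CPM in Vehicle mice and 2.43, 3.09, 3.35, 2.15 and 1.95 CPM in Pool 1 mice. Smyd1, a methyltransferase known from muscle, had 0.421, 0.736, 0.606, 0.921 and 0.605 CPM in Vehicle mice and 0.930, 1.03, 1.36, 1.03 and 1.37 CPM in Pool 1 mice. Neither overlapped between the groups, although in each the nearest mice were almost level. Wnt10b, a Wnt ligand, had 0.379, 0.346, 0.606, 0.176 and 0.512 CPM in Vehicle mice and 0.971, 0.807, 0.922, 0.862 and 0.498 CPM in Pool 1 mice, with overlap through Pool 1 replicate 5 (0.99 ± 0.33 SE). Against Control mice the values were 0.36 for Atp2c2, 0.48 for Smyd1 and 0.53 for Wnt10b, and none of the 3 passed the threshold.

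Pomc, the precursor of beta-endorphin and melanocortins, had 0.969, 0.606, 0.565, 0.790 and 0.838 CPM in Vehicle mice and 5.58, 1.57, 0.728, 0.948 and 1.12 CPM in Pool 1 mice. The higher log2 fold change of 1.41 rested on Pool 1 replicate 1, and without it the value was 0.54 with an unadjusted p-value of 0.112 in edgeR. Against Control mice, with this mouse included, Pomc was at 1.09 (unadjusted p-value in edgeR 0.0219). The other named higher genes were Mex3d, an RNA-binding protein (0.33), Dyrk3, a kinase of stress granules (0.40), Zfp697, a zinc finger protein (0.30), and Slc27a2, a fatty acid transport protein (0.42). In all 4 the groups overlapped.

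Among noncoding genes, the nuclear lncRNA Neat1, the scaffold of paraspeckles, fell. Its values were 185, 251.7, 125, 194 and 181 CPM in Vehicle mice and 88.7, 126, 107, 123 and 125 CPM in Pool 1 mice. Only Vehicle replicate 3 lay within the Pool 1 range (−0.72 ± 0.16 SE, adjusted p-value 0.283). Against Control mice Neat1 was at −0.04, and Control was at −0.68 against Vehicle. 4930581F22Rik fell without overlap, from 7.46, 6.41, 5.77, 6.10 and 8.19 CPM in Vehicle mice to 5.14, 4.98, 3.69, 4.91 and 5.23 CPM in Pool 1 mice. Six3os1, the antisense partner of the forebrain factor Six3, had 3.67, 2.12, 0.202, 5.92 and 0.465 CPM in Vehicle mice and 0.364, 0.135, 0.146, 0.0862 and 0.498 CPM in Pool 1 mice, and Six3 itself had 2.65, 1.13, 0.161, 2.98 and 0.233 and 0.202, 0.224, 0.340, 0.0862 and 0.208 CPM. In both, Vehicle replicates 1, 2 and 4 were high while replicates 3 and 5 lay within the Pool 1 range, and reads of overlapping partners may be shared. Gm16201 (−1.68) and 4933429O19Rik (−3.87) fell with overlap, and the latter stood at −2.35 without Vehicle replicate 4.

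Of the noncoding genes that rose, 6330420H09Rik had 3.71, 5.58, 7.95, 5.31 and 6.94 CPM in Vehicle mice and 4.33, 10.4, 12.1, 9.95 and 12.3 CPM in Pool 1 mice, with Pool 1 replicate 1 inside the Vehicle range. Gm19619 (0.88), Gm15496 (0.58) and Gm12212 (0.95) rose with overlap, and the snRNA gene Gm24265 (1.91) was highest in Pool 1 replicates 1 and 4. Gm15496 lost its call without Vehicle replicate 4.

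The genes of the 4 proteins that the study stained, Syt2, Pvalb, Gfap and Aif1, did not pass the threshold against Vehicle. Against Control, Gfap was lower, at −0.49 (unadjusted p-value in edgeR 0.0358), and Syt2 was higher, as given below. Pvalb and Aif1 did not pass there either. Syt2, the synaptotagmin of parvalbumin terminals, had 37.0, 26.2, 30.1, 21.6 and 18.6 CPM in Vehicle mice and 20.02, 39.2, 26.2, 34.3 and 36.6 CPM in Pool 1 mice. The groups overlapped over most of their range and the log2 fold change was 0.22 ± 0.22 SE (unadjusted p-value in edgeR 0.321, exact two-sided permutation p-value 0.413). Against Control it was 0.50 (unadjusted p-value in edgeR 0.0356), with Control at −0.28 against Vehicle. Pvalb, parvalbumin, was at 0.09, and Syt1, the main synaptotagmin of forebrain terminals, was at 0.07. Gfap, the intermediate filament of astrocytes, had 507, 617, 524, 362 and 564 CPM in Vehicle mice and 388, 432, 368, 464 and 433 CPM in Pool 1 mice (−0.30 ± 0.22 SE, unadjusted p-value in edgeR 0.174). Only Vehicle replicate 4 lay below the highest Pool 1 mouse. Without it the log2 fold change was −0.41, with an unadjusted p-value of 0.0765 in edgeR, so that Gfap did not pass. The exact permutation p-value was then 0.00794, the smallest that 5 against 4 mice allow. Aif1, which encodes the microglial protein IBA1, had 7.16, 7.53, 6.58, 5.31 and 10.7 CPM in Vehicle mice and 5.02, 3.90, 3.83, 5.65 and 5.69 CPM in Pool 1 mice (−0.63 ± 0.42 SE, unadjusted p-value in edgeR 0.155). Again only Vehicle replicate 4 fell within the Pool 1 range. Without it the log2 fold change of Aif1 was −0.73, with an unadjusted p-value of 0.127 in edgeR. The exact permutation p-value of Aif1 was 0.0238 with this mouse and 0.00794 without it. Both Gfap and Aif1 fell in the fit of only the Pool 1 and Vehicle mice and in that without Vehicle replicate 4 and Pool 2 replicate 1, where the unadjusted p-values were 0.0114 and 0.00213 in edgeR. In the other 16 alternatives neither passed.

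Glial and immune gene lists had mostly negative log2 fold changes, with few single genes past the threshold. In microglia, the resident macrophages of the brain, 2 of 20 genes fell (Itgam and Cx3cr1), against 4.28% of all genes, and 19 of 20 had a log2 fold change below 0, with a median of −0.26. Cx3cr1, the fractalkine receptor, had 66.7, 73.0, 65.7, 55.2 and 77.3 CPM in Vehicle mice and 52.4, 56.0, 52.7, 61.4 and 47.8 CPM in Pool 1 mice, and only Vehicle replicate 4 lay within the Pool 1 range (−0.32 ± 0.15 SE, and −0.04 against Control). Itgam, the CD11b integrin, was at −0.49 ± 0.20 SE. Of the reactive astrocyte genes 4 of 29 fell (Cd44, S1pr3, Clcf1 and Steap4), with a median of −0.32, and Steap4 lost its call without Vehicle replicate 4 (−1.28, unadjusted p-value 0.162 in edgeR). Cd44, the hyaluronan receptor, had 4.04, 4.63, 2.22, 2.06 and 3.82 CPM in Vehicle mice and 1.54, 1.84, 0.631, 2.37 and 2.08 CPM in Pool 1 mice, with overlap through Vehicle replicates 3 and 4. Of 18 homeostatic astrocyte genes none passed the threshold and the median was 0.00, although 8 had values below 0.

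The interferon response list had no gene of 30 past the threshold, yet 29 of 30 log2 fold changes were below 0 and the median was −0.43. In the list of complement and antigen presentation 0 of 26 genes passed the threshold, all 26 had log2 fold changes below 0, and the median was −0.55. Of 23 inflammatory mediators 2 fell, the chemokine Ccl5 and the cytokine Il1a, with a median of −0.55. Ccl5 had 3.08, 1.08, 0.0807, 0.614 and 2.00 CPM in Vehicle mice and 0, 0, 0.0485, 0.431 and 0.208 CPM in Pool 1 mice, and only Vehicle replicate 3 lay within the Pool 1 range. Of 23 sensors of foreign RNA 1 fell, Ifih1, the cytosolic sensor MDA5, from 5.60, 6.10, 4.04, 5.00 and 6.05 CPM in Vehicle mice to 4.01, 4.21, 2.86, 4.78 and 2.53 CPM in Pool 1 mice (−0.54 ± 0.21 SE). This count of 1 in 23 is near the background of 4.28% lower genes. Genes of such a list are regulated together and are not independent, so their shared sign was not tested.

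These counts moved with the libraries fitted, and the cause was not tested. Pool 2 replicate 1, which enters the main fit, summed to 3420 CPM in complement and antigen presentation and to 934 CPM in the interferon response. The same sums were 408 to 735 and 159 to 254 CPM in Vehicle mice, and 322 to 494 and 139 to 207 CPM in Pool 1 mice. In a fit of only the Pool 1 and Vehicle mice, 12 of 26 genes of complement and antigen presentation, 5 of 30 interferon response genes, 6 of 20 microglial genes and 8 of 29 reactive astrocyte genes fell, where 1091 of all 25190 genes were lower. Without Vehicle replicate 4 and Pool 2 replicate 1 together, the counts were 13, 11, 6 and 11, where 1013 of all genes were lower, and without Vehicle replicate 4 alone they were 1, 1, 2 and 5, where 819 were lower. The sensors of foreign RNA ran from 1 to 5 of 23 over the alternatives, with 5 in the fit without both libraries. The counts also went down. No microglial gene passed without Pool 1 replicate 5 or Vehicle replicate 5, and 1 reactive astrocyte gene fell without Pool 1 replicate 1, 2 or 3 or Vehicle replicate 2. No inflammatory mediator passed without Pool 1 replicate 2 or Vehicle replicate 1. Against Control mice the medians were −0.14 for complement and antigen presentation, 0.01 for the interferon response, −0.17 for microglia and −0.18 for reactive astrocytes. Of these 4 lists 1 gene passed the threshold there, Gfap. Blood cells, whose genes can enter with vessels, had 2 of 15 genes lower, against 4.28% of all genes, and 1 without any single one of Pool 1 replicates 1, 3 and 5 or Vehicle replicates 1, 2 and 5. Of these, Ptprc, the leukocyte antigen CD45, had 10.8, 8.57, 5.01, 5.97 and 8.47 CPM in Vehicle mice and 3.80, 4.08, 3.88, 5.56 and 2.74 CPM in Pool 1 mice (−0.95 ± 0.34 SE), and was at −0.18 against Control (unadjusted p-value 0.599 in edgeR). S100a9, a neutrophil calcium-binding protein, stood at 0.779 CPM or less in every mouse. The globin genes of red cells did not pass the threshold, with log2 fold changes of −0.18 (Hba-a1), 0.10 (Hba-a2), 0.07 (Hbb-bs) and −0.21 (Hbb-bt). Of 28 immunoglobulin genes 10 were lower and 1 was higher with and without Vehicle replicate 4, against 4.28% lower and 1.06% higher of all genes with it, and their summed level was 18.3 to 41.4 CPM in Vehicle mice and 13.4 to 25.7 CPM in Pool 1 mice. The part of blood and immune cells in these values was not tested.

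Oligodendrocytes, the myelin-forming glia, had 2 of 21 genes lower, against 4.28% of all genes, and the median of the list was −0.27. Ermn, a cytoskeletal protein of myelinating cells, had 119.9, 129, 55.4, 76.4 and 62.8 CPM in Vehicle mice and 38.5, 76.4, 55.0, 65.5 and 65.8 CPM in Pool 1 mice (−0.56 ± 0.25 SE). Vehicle replicates 1 and 2 were high, Pool 1 replicate 1 was low, and the others overlapped. None of the 21 genes passed the threshold once Vehicle replicate 1, Vehicle replicate 2, Pool 1 replicate 1 or Pool 1 replicate 3 was left out. Aspa, the enzyme that cleaves N-acetylaspartate, was at −0.49. The leptomeningeal list had 2 of 23 genes lower, against the same background, Igf2 and Igfbp2, which the choroid plexus also expresses. Igfbp2, a binding protein of insulin-like growth factors, had 143 CPM in Vehicle replicate 4 and 18.8 to 25.5 CPM in the other Vehicle mice, and its call was lost without it (−0.46). Endothelial cells and pericytes had 0 of 21 genes past the threshold.

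**Figure D5:**
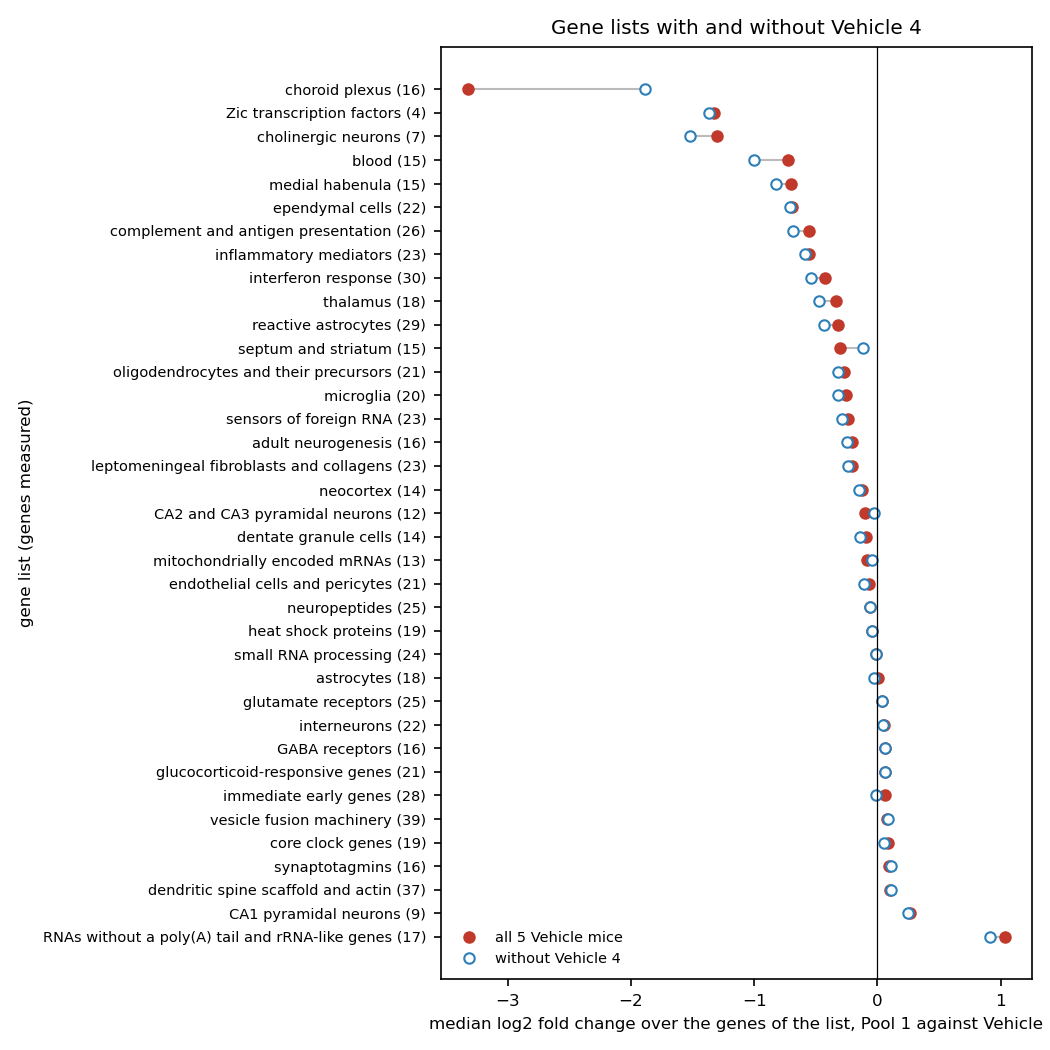
Median log2 fold change of Pool 1 against Vehicle (x axis) over the genes of each list (y axis, with the number of genes measured), with all 5 Vehicle mice (red) and without Vehicle replicate 4 (open blue). Choroid plexus has the lowest median and moves most, synaptic lists lie near 0, and the list of RNAs without a poly(A) tail and rRNA-like genes has the highest median.

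Synaptic and neuronal lists had few genes past the threshold. Of 39 genes of the vesicle fusion machinery, 1 rose (Cplx4, a complexin) and 1 fell (Slc18a2, the vesicular monoamine transporter), 29 had log2 fold changes above 0, and the median was 0.08, beside 1.06% higher and 4.28% lower genes over the whole table. Cplx4 stood at 0.249 CPM or less in every mouse and lost its call without Vehicle replicate 4. Slc18a2 had 4.93, 5.76, 3.39, 5.05 and 4.05 CPM in Vehicle mice and 2.87, 1.21, 2.81, 3.19 and 1.87 CPM in Pool 1 mice, without overlap (−0.95 ± 0.28 SE). Of 16 synaptotagmins, Syt9 alone passed the threshold, and without Vehicle replicate 4 Syt6 did so too (−0.40). No gene passed among 25 glutamate receptors, 16 GABA receptors, 37 genes of the spine scaffold and actin, 22 interneuron genes, 25 neuropeptides, 9 CA1 genes or 14 dentate granule cell genes, and the medians of these lists lay between −0.09 and 0.27. The highest was that of the CA1 list, with 8 of 9 log2 fold changes above 0, and in the list of spine scaffold and actin 30 of 37 were above 0 with a median of 0.10. Without Vehicle replicate 4, 1 gene of these lists passed, the neuropeptide Avp (−1.72). Of 12 genes of CA2 and CA3 neurons, Pcp4, a calmodulin regulator of CA2, fell from 6.78, 7.27, 6.78, 6.27 and 10.5 CPM in Vehicle mice to 7.52, 4.26, 6.07, 5.26 and 3.53 CPM in Pool 1 mice, with overlap (−0.49 ± 0.20 SE).

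Of 24 genes of small RNA processing, none passed the threshold and the median was −0.01. The immediate early genes, induced by neuronal activity, had 1 of 28 lower (Inhba), and the heat shock proteins 1 of 19 (Hspb8). Among 16 genes of adult neurogenesis 1 fell (Igfbpl1). The glucocorticoid-responsive genes had 1 of 21 higher (Hif3a), and the clock genes had 1 of 19 higher (Dbp) and 1 lower (Rorb, also counted in the neocortex list). Inhba (−0.25), Hspb8 (−0.29), Igfbpl1 (−0.85) and Dbp (0.30) lost their calls without Vehicle replicate 4. In that fit the immediate early gene Klf4 (−0.52) and the neurogenesis genes Mki67 (−0.79) and Nes (−0.38) fell instead. Single calls of this kind stand beside 4.28% lower and 1.06% higher genes over the whole table. None of the 13 mitochondrially encoded mRNAs passed the threshold.

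In a list of RNAs without a poly(A) tail and of genes that resemble or overlap ribosomal RNA, the mRNA gene Lars2 among them, only some mice were high. Of 17 genes measured 4 rose (Scarna2, Rnu11, Gm24270 and Gm42418), against 1.06% of all genes, all 17 had log2 fold changes above 0, and the median was 1.04, or 1.02 over the 16 genes other than Rnu11. Rnu11, the U11 snRNA, had no count in Vehicle mice and 6 counts over the 5 Pool 1 mice. Gm42418, which overlaps ribosomal RNA sequence, had 4396, 4344, 544, 1175 and 1631 CPM in Vehicle mice and 12404, 1511, 1775, 5460.3 and 9609 CPM in Pool 1 mice. Pool 1 replicates 1, 4 and 5 were high, replicates 2 and 3 lay within the Vehicle range, and the call was lost without Vehicle replicate 4 (1.17), as was that of Gm24270 (1.18), which left 2 higher genes. No gene of the list passed without Pool 1 replicate 1, and 10 of 17 rose without Vehicle replicate 1, where 387 of all 25190 genes were higher. The libraries were selected for polyadenylated RNA, and the genes of this list took 0.925% to 1.41% of the counts of Vehicle mice and 1.09% to 2.57% of those of Pool 1 mice, with Pool 1 replicate 1 the highest. The part of that selection in these values was not tested. Against Control mice 14 of the 17 were higher in Pool 1, against 1.48% of all genes, with a median of 2.61, while the median was −1.29 in Control and 1.01 in Pool 2 against the same Vehicle mice.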

How the data were processed

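RNA of the hippocampus of 20 mice was sequenced as 50 nt single-end reads of stranded, poly(A)-selected libraries, and the 5 Pool 1 and 5 Vehicle libraries were compared. The authors checked reads with FastQC 0.11.5, aligned them to the mouse genome (mm10) with STAR, counted reads per gene with it and deposited raw counts, not normalised. Every gene of the table has at least 10 counts summed over all libraries. Coordinates are those of the deposited table (GRCm38). Which of STAR's strand columns was kept is not given in the sources used here.

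Counts were scaled by TMM and tested with edgeR 4.0.16 (quasi-likelihood, robust) under R 4.3.3, fitting the 4 groups (20 libraries) together, with Benjamini-Hochberg adjustment over all 25190 genes. The study's threshold on fold change and p-value was kept, so a gene counted as higher or lower where its log2 fold change passed 0.3 in size and its p-value before adjustment lay below 0.05. The study also left genes with a mean count under 10 out of its lists, which was not done in the main counts. Of these, 179 higher and 354 lower genes had a mean normalised count under 10. CPM, the count relative to the library total, used the TMM factors, with 2 as the prior count on the log2 scale. For single genes two-sided exact permutation tests were added, whose smallest possible p-value is 0.00794. Pool 1 against Control came from the same fit. A chi-square test found no repeated library (7.59 to 60.8 per degree of freedom over pairs of replicates).

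The genes named are the 12 higher and 11 lower protein-coding genes (of 12 by the rule) and the 5 and 5 others with the smallest p-value and a mean normalised count of at least 10 in these libraries, Syt2, Syt1, Pvalb, Gfap and Aif1, and up to 4 called members of each list. Ttr, Lars2, the globin genes, Klf4, Mki67, Nes, Syt6 and Avp were named besides, after their values were seen. Some genes are not reported here, and the named genes and lists were used without them. Members and lists were chosen with earlier results of these data known. Of 37 lists, 32 were written with the study's questions in view and 5 (Zic genes, ependymal cells, medial habenula, septum and striatum, cholinergic neurons) after values were seen. List genes with no row in the table were not analysed here. Alternatives were DESeq2 1.42.0, its size factors, 2 filters, other sets of libraries, the default spread and the replicate number as a block. The edgeR and DESeq2 tests of Pool 1 against Vehicle were also run on simulated counts, and the other steps were not.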

Additional observations from a re-analysis of the deposited data

Results flagged for a closer look

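Among 244 groups of 5 mice (85 named genes and 37 list means, each in Vehicle and in Pool 1 mice), 25 held 1 mouse far from the other 4, with a gap above 0.710 of the range of the group. For independent normal values this cut gives about 1 in 20. Most of these values are CPM of genes picked by their group difference, some near the floor, so that rate does not apply here. Only 1 of the 25 was a list mean, that of septum and striatum, where Pool 1 replicate 3 was high at a mean log2 CPM of 2.56.

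Vehicle replicate 4 was the distant mouse in 7 of them. It was high in Otx2 (34.7 CPM), Clic6 (138 CPM), F5 (107 CPM), Igf2 (4.04 CPM) and Igfbp2 (143 CPM), genes that the choroid plexus expresses, and in Steap4 (2.37 CPM) and the lncRNA 4933429O19Rik (3.07 CPM). The next highest Vehicle mouse stood at 9.78 CPM for Otx2, 31.3 CPM for Clic6 and 25.5 CPM for Igfbp2.

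Vehicle replicate 2 was the distant mouse in 6 others. It was high in the habenular genes Pou4f1 (3.64 CPM) and Chrna3 (6.88 CPM), in the cholinergic genes Chat (1.69 CPM), Slc5a7 (4.20 CPM) and Slc18a3 (1.39 CPM) and in Syt9 (15.8 CPM). Vehicle replicate 5 was high in Pcp4 (10.5 CPM).

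Among Pool 1 mice, replicate 1 was high in Pomc (5.58 CPM). Replicate 5 was high in Icam5 (414 CPM), Igfbp2 (26.1 CPM), Cplx4 (0.249 CPM) and Chrnb4 (0.955 CPM). Replicate 4 was high in Gm15496 (2.41 CPM), and replicate 3 was low in 4930581F22Rik (3.69 CPM). Near the floor, replicate 3 alone had counts of Isl1 (0.0971 CPM), replicate 2 alone had none of Pou4f1 (0 CPM), and replicate 2 was highest in 4933429O19Rik (0.179 CPM).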

How the results depend on the processing

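The direction of the comparison, with more lower than higher genes, held in the 18 alternatives, and the numbers moved. DESeq2 called 177 higher and 930 lower genes, and 34 at an adjusted p-value under 0.05, of which Rps13-ps1 alone was higher. The 34 included Col6a3 (adjusted p-value in DESeq2 5.46e-05), Zic4 and Otx2 (0.000795 each), Frrs1 and Syt9 (0.00432 each) and Zic1 (0.0249). Zic2 was not among them, and none of these genes had an adjusted p-value under 0.05 in the main edgeR fit. Genes with a mean normalised count of at least 10 gave 93 higher and 699 lower genes, and the filter of edgeR gave 104 higher and 735 lower genes, with fewer genes tested. Leaving out 1 mouse at a time gave 226 to 387 higher genes, 782 to 1330 lower genes and 0 to 13 genes at an adjusted p-value under 0.05 in edgeR, the 13 without Vehicle replicate 3, and the cause was not tested. With DESeq2's size factors in edgeR there were 280 higher and 1021 lower genes, with the default estimate of the spread 281 and 1097, and with only the Pool 1 and Vehicle mice 244 and 1091. Without Vehicle replicate 4 and Pool 2 replicate 1 together there were 234 and 1013.

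Replicate numbers gave no clear pairing of the mice. Same-numbered Vehicle and Pool 1 mice had correlations of −0.08 to 0.28, and only numbers 2 and 5 matched best with themselves. So few pairs cannot settle whether the number links mice. With the replicate number as a block there were 222 higher and 967 lower genes and 0 at an adjusted p-value under 0.05 in edgeR.

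Of the 80 named genes that passed the threshold, 38 kept their call in every alternative that gave a value (32 lower and 6 higher), and 42 lost it in at least 1. Of the 5 that did not pass, Gfap and Aif1 did so in 2 alternatives each. The only change of sign was that of Pvalb, whose log2 fold change ran from −0.0090 without Pool 1 replicate 5 to 0.19 without Pool 1 replicate 1. Of the cholinergic list, 1 gene was lower under each filter on low counts. Genes near 3 counts, such as Prdm12, Chat, Isl1, Cplx4 and Rnu11, are limited by depth, and 5 mice a group limit all p-values.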
